A study of Mus musculus with 10 samples.

Results

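The 36 genes described here carry glucose and lactate across the cell membrane, break glucose down to pyruvate and lactate, and bring pyruvate into the mitochondrion and to pyruvate dehydrogenase. They were taken by name from the table of normalized read counts of whole brown adipose tissue (BAT), which lists 27267 genes, and all 36 were among the 13714 genes with a mean of at least 10 that were tested. The study asks what Matrix Gla protein (MGP), a secreted inhibitor of bone morphogenetic proteins, does in the development of BAT. RNA was sequenced from C57BL/6 males of 4 weeks on a standard chow diet, with 5 libraries labelled wild type (WT) and 5 labelled *Mgp*-KO, the global deletion of *Mgp*. A deletion of this kind acts from the start of development and in cells other than fat, and the study describes these mice as short-lived through vascular disease. Each library is named below by its label and its replicate number. No treatment is named for either group, and the labels do not say whether a number marks a litter, a day or a pair.

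Brown adipocytes burn fuel to make heat. They take up glucose through an insulin-responsive transporter and a basal transporter, trap it by phosphorylation through hexokinase, and pass it down glycolysis to pyruvate. Pyruvate then either leaves as lactate or enters the mitochondrion through a carrier and is turned into acetyl-CoA by the pyruvate dehydrogenase complex, which kinases switch off and phosphatases switch on. Uptake of a labelled glucose analogue is used as a measure of the activity of brown fat, and the study used it so, which makes the transporters and hexokinases of interest in this comparison.

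The libraries fell into sets by replicate number that the genotype does not explain. Replicates 1 to 3 held 19616366 to 22252260 reads in genes and replicates 4 and 5 held 9253793 to 13281873, and mitochondrial ribosomal RNA took 0.771% to 1.72% of the reads in the former and 6.50% to 16.7% in the latter. *Mgp* itself was at 0, 0.765 and 0.821 normalized counts in the KO-labelled replicates 1 to 3, but at 500.2 and 331 in the KO-labelled replicates 4 and 5, against 466 to 1146 in WT. Reads of *Mgp* therefore contradict the KO label of replicates 4 and 5, and reads of *Xist* and of Y-linked genes contradict the male label of WT 2. All labels were kept, and counts are also given without these libraries. The 8 brown adipocyte markers were read in every library and summed to 200327 to 394843 in WT and 138879 to 280983 in the KO-labelled libraries. In whole tissue, fewer cells of a type and less RNA per cell cannot be told apart.

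Most of the 36 genes lay lower in the KO-labelled libraries, but none passed the test over all libraries. The lowest fold changes were those of *Pdhb*, a subunit of pyruvate dehydrogenase, with a log2 fold change of -1.33 ± 0.25 (SE, n = 5 per group), *Eno1*, the enolase of most tissues, with -1.33 ± 0.36, *Pgam1*, with -1.15 ± 0.51, and *Pfkl*, the liver-type phosphofructokinase, with -1.12 ± 0.30. The value of *Pgam1* rested on *Mgp*-KO 4, without which it was -0.69. Of the 36 genes, 27 had a log2 fold change below 0, beside 47.3% of all genes tested, and their median was -0.46, beside 0.03 over all genes tested. The median of the 36 was -0.23, with 25 below 0, without *Mgp*-KO 4 and -0.14, with 21 below 0, without *Mgp*-KO 4 and 5, while in replicates 1 to 3 alone it was -0.14 with 27 below 0 and in replicates 4 and 5 alone -0.86 with 27 below 0. By limma with Benjamini-Hochberg adjustment over all genes tested, 0 of the 36 passed an adjusted p of 0.05, beside a background of 0.0656% of all genes. At an unadjusted p of 0.05 there were 11 lower and 0 higher in limma, beside 5.69% and 4.67% of all genes. Without *Mgp*-KO 4 and 5 there were 9 lower and 5 higher, beside 8.67% and 9.79%. Fits without *Mgp*-KO 4 and 5, here and below, have no term for the sets. They leave replicates 4 and 5 to WT alone, so that differences between the sets enter their genotype difference. On the recovered reads edgeR called 0, beside 0.0219% of all genes, and DESeq2 called 5 lower and 0 higher, beside 1.26% and 0.997%.

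With a term for the sets of replicates 1 to 3 and 4 and 5, limma called 5 genes lower and 0 higher, beside 1.54% and 0.824% of all genes. These were *Pfkl*, *Gapdh*, *Eno1*, *Ldha* and *Pdhb*. DESeq2 without the term also called *Pfkl*, *Eno1*, *Ldha* and *Pdhb*, and it called *Dlat* in place of *Gapdh*. Within replicates 1 to 3 limma called 2 genes lower, *Eno1* and *Pdhb*, beside 1.65%. Within replicates 4 and 5 it called 0 of the 36 and 0 of all genes, with 10 of the 36 lower and 0 higher at an unadjusted p of 0.05, beside 3.27% and 2.96% of all genes. Without *Mgp*-KO 4 and 5 it called 2, *Ldha* and *Pdhb*, beside 0.955%, and without WT 2 as well it called 0, beside 0.707% of all genes, with *Pdhb* at an adjusted p of 0.0540. At an unadjusted p of 0.05 that last fit had 9 lower and 5 higher, beside 8.14% and 9.49%. As both fits without *Mgp*-KO 4 and 5 mix sets and genotype, their calls are not a clean check of the labels. Between the sets *Ldha* was higher in replicates 4 and 5 by a log2 difference of 0.63, and *Eno1* differed by -0.85.

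**Figure D1:**
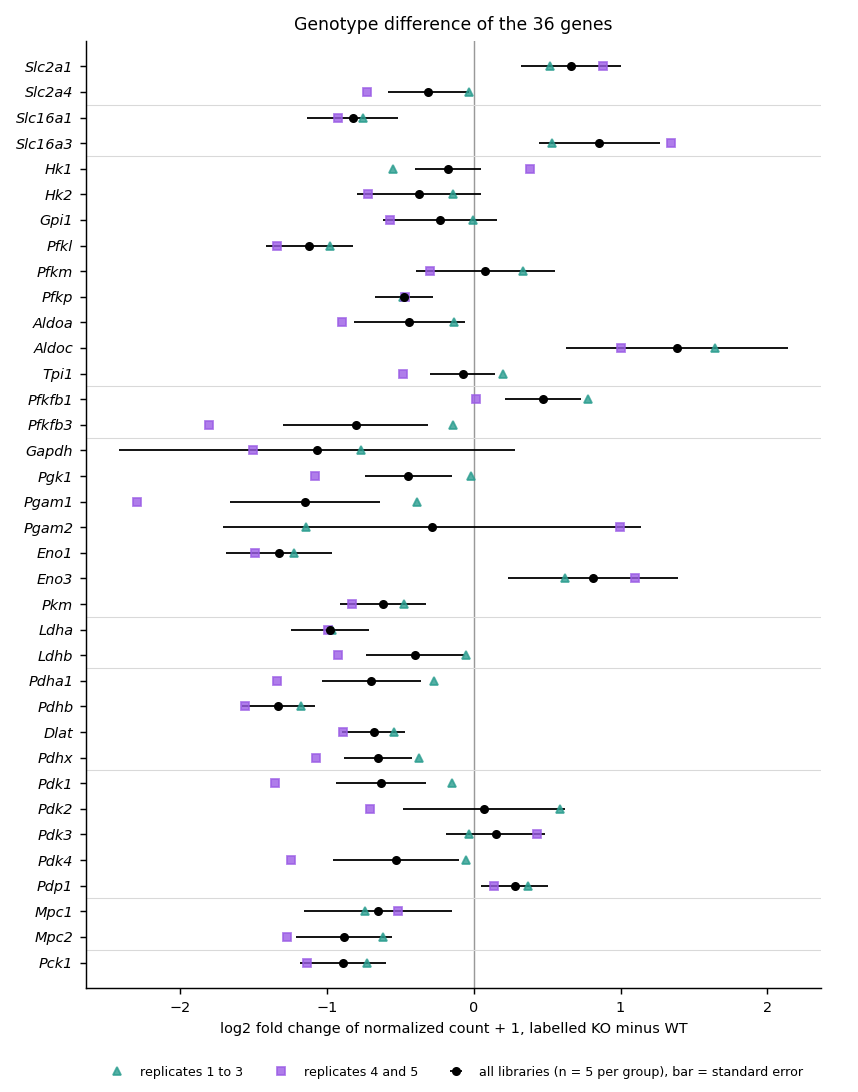
Log2 fold change (KO-labelled minus WT) of the normalized count + 1 for each of the 36 genes, ordered by role. Black points and bars are the fold change and standard error over all libraries (n = 5 per group), triangles the value within replicates 1 to 3 and squares that within replicates 4 and 5. *Pdhb*, *Eno1*, *Ldha* and *Pfkl* lie left of 0 on all 3 marks, while *Hk1* and *Pdk2* lie on either side of 0 in the 2 sets.

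The glucose transporters were compared first. *Slc2a4* encodes GLUT4, the insulin-responsive transporter. It was at 5302, 5605, 6736, 4699 and 6974 normalized counts in WT 1 to 5 and at 5372, 6569.5, 5285, 2302 and 5195 in the same order of the KO-labelled group. The groups overlapped, and only *Mgp*-KO 4 lay below the WT range. The genotype difference on the log2 scale was -0.31 ± 0.28 (SE, limma adjusted p = 0.748), with -0.03 in replicates 1 to 3 alone and -0.73 in replicates 4 and 5 alone. *Slc2a1* encodes GLUT1, the basal transporter of most cells. Its WT values were 126, 142, 142, 111 and 48.5, and the KO-labelled ones 164, 306, 149, 170.0 and 109. Libraries *Mgp*-KO 1 to 4 lay above every WT library and *Mgp*-KO 5 did not. *Slc2a1* had a log2 fold change of 0.66 ± 0.34 (SE, limma adjusted p = 0.540), a difference in the opposite direction to that of *Slc2a4*. Single libraries moved both values, to -0.056 for *Slc2a4* without *Mgp*-KO 4 and to 0.38 for *Slc2a1* without WT 5.

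The lactate transporters also differed in direction. *Slc16a1* encodes MCT1, which carries lactate and other monocarboxylates in or out of the cell. It was at 5537, 6016, 5036, 3094 and 6281 in WT and at 4486, 1772, 4379, 1998 and 2692 in the KO-labelled libraries. WT 4 was the lowest of its group and overlapped with *Mgp*-KO 1 and 3, and the log2 fold change was -0.82 ± 0.31 (SE, limma adjusted p = 0.358). *Slc16a3* encodes MCT4, the lactate exporter of glycolytic cells, and was scarce. It had 3 to 24 reads per library in WT and 13 to 21 in the KO-labelled group. Its log2 fold change was 0.86 ± 0.41 (SE, limma adjusted p = 0.507).

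The hexokinases trap glucose in the cell as glucose phosphate. *Hk2*, the insulin-regulated hexokinase of muscle and fat, was at 4611, 5080.2, 5608, 9381 and 19639 in WT and at 4327, 6125, 3711, 11441 and 5942 in the KO-labelled libraries. The value in WT 5 was by far the highest of the 10 libraries, and the groups overlapped over most of their range. *Hk2* had a log2 fold change of -0.37 ± 0.42 (SE, limma adjusted p = 0.815), and one of -0.025 without WT 5. *Hk1*, the hexokinase found in most cells, was at 636, 624, 532, 314 and 491 in WT and at 457, 317, 463, 503 and 523 in the KO-labelled libraries. In replicates 1 to 3 each WT value lay above each KO-labelled value, and in replicates 4 and 5 the order was the reverse. For *Hk1* the log2 fold change came to -0.55 in replicates 1 to 3 alone and 0.39 in replicates 4 and 5 alone, and the difference between them had an unadjusted p of 0.0208 and an adjusted p of 0.459 in limma.

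**Figure D2:**
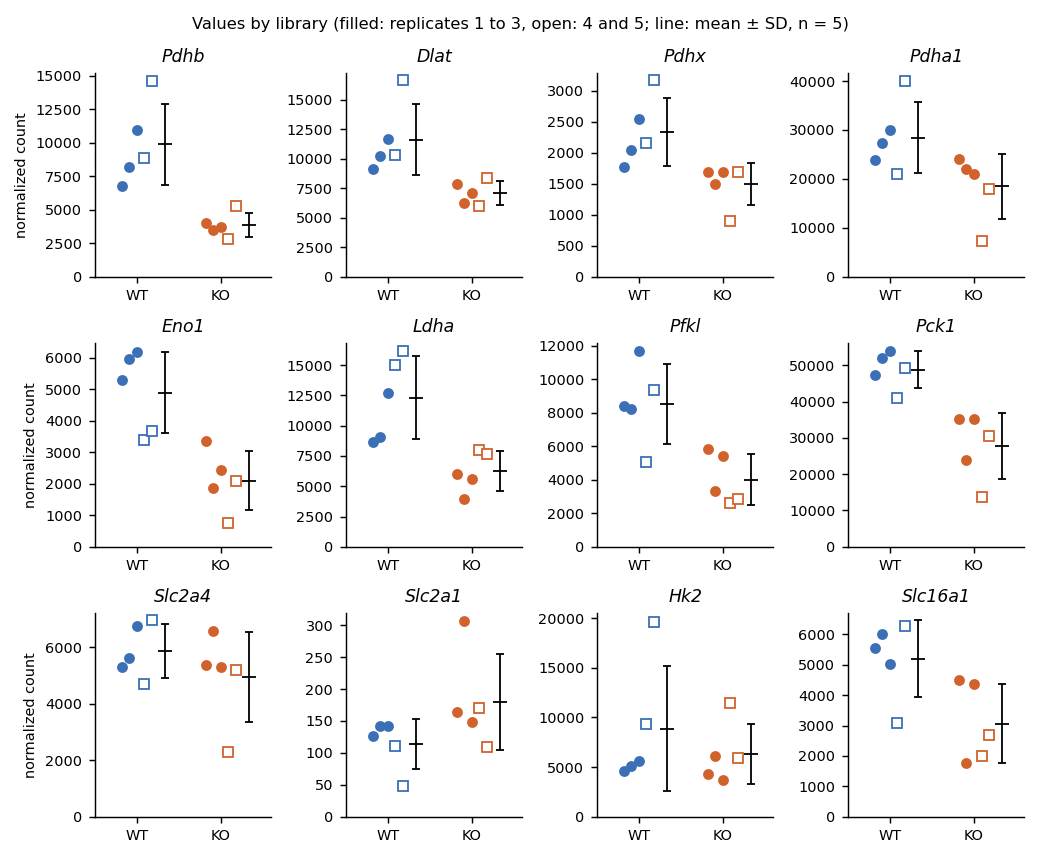
Normalized counts of 12 of the genes in each library, with WT in blue and KO-labelled libraries in orange, filled for replicates 1 to 3 and open for replicates 4 and 5; the bars give the mean ± SD (n = 5). *Pdhb*, *Dlat*, *Pdhx*, *Eno1*, *Ldha* and *Pck1* have no overlap between the groups, whereas *Slc2a4*, *Slc2a1* and *Hk2* overlap.

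Phosphofructokinase commits sugar to glycolysis, and its isoforms are named for liver (*Pfkl*), muscle (*Pfkm*) and platelet (*Pfkp*). *Pfkl*, at GRCm38 chr10:77986947-78010083 on the minus strand, was at 8372, 8223, 11680.0, 5071 and 9349.6 in WT and at 5850.1, 3325, 5425, 2629 and 2823 in the KO-labelled libraries. Means were 8539 ± 2381 and 4010.5 ± 1514 (SD, n = 5 each), and the overlap came from WT 4, which lay below *Mgp*-KO 1 and 3. The difference had an adjusted p of 0.188 in limma and of 0.0284 with the term for the sets, and it came to -0.98 in replicates 1 to 3 alone and -1.34 in replicates 4 and 5 alone. *Pfkp* had a log2 fold change of -0.48 ± 0.20 (SE, limma adjusted p = 0.423) and *Pfkm* one of 0.08 ± 0.47 (SE, limma adjusted p = 0.969).

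None of the other enzymes of the upper part of glycolysis passed the limma test over all libraries. *Gpi1*, which turns glucose phosphate into fructose phosphate, had a log2 fold change of -0.23 ± 0.39 (SE), *Aldoa*, the main aldolase, one of -0.44 ± 0.38, and *Tpi1*, triose phosphate isomerase, one of -0.07 ± 0.22, with limma adjusted p of 0.883, 0.738 and 0.943. *Aldoc*, the aldolase best known from brain, was low, at 51.5, 34.4, 55.9, 16.1 and 8.65 in WT and at 211, 84.9, 176, 11.3 and 52.8 in the KO-labelled libraries. *Mgp*-KO 1 to 3 lay above all WT libraries, while *Mgp*-KO 4 lay among the lowest. *Aldoc* had a log2 fold change of 1.39 ± 0.75 (SE), the highest of the 36 genes, with an adjusted p of 0.573 in limma. DESeq2 with the term for the sets was the only fit here that called *Aldoc*, with 8 other genes, all lower, beside 3.91% of all genes lower and 3.5% higher. The 8 were *Pfkl*, *Gapdh*, *Eno1*, *Ldha*, *Pdhb*, *Dlat*, *Mpc2* and *Pck1*.

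*Pfkfb1* and *Pfkfb3* make and break fructose bisphosphate, the activator of phosphofructokinase. *Pfkfb1* had a log2 fold change of 0.47 ± 0.26 (SE, limma adjusted p = 0.578). *Pfkfb3* was at 9888, 10254, 10397, 8031 and 6700.3 in WT and at 5809, 13166, 10336, 2025 and 2180.5 in the KO-labelled libraries. The lowest values were those of *Mgp*-KO 4 and 5, and *Mgp*-KO 2 was the highest of all 10 libraries. For *Pfkfb3* the log2 fold change came to -0.14 in replicates 1 to 3 alone and -1.80 in replicates 4 and 5 alone, and the difference between them had an unadjusted p of 0.00302 and an adjusted p of 0.455 in limma.

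In the lower part of glycolysis, *Eno1* had the lowest log2 fold change, at -1.33. Enolase makes phosphoenolpyruvate. *Eno1*, at GRCm38 chr4:150236721-150248879 on the plus strand, was at 5292, 5944, 6175, 3384 and 3665 in WT and at 3361, 1863, 2443, 756 and 2084 in the KO-labelled libraries. Each WT library lay above each KO-labelled library, though WT 4 and *Mgp*-KO 1 were close. Means were 4892 ± 1293 and 2101 ± 945 (SD, n = 5 each). In limma the adjusted p of *Eno1* stood at 0.200 over all libraries, at 0.0250 once the sets had a term and at 0.0306 in replicates 1 to 3 alone. Of all 50-base stretches of *Eno1* transcripts, 26.0% occur in another gene as well, mainly in *Eno1b*, and reads that map to several places were not counted. With *Eno1b* and *Gm5855*, a further near-identical copy, added in, the log2 difference between the groups was -1.34, a sum chosen after the values were seen.

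*Pgk1*, phosphoglycerate kinase, and *Pgam1*, the phosphoglycerate mutase of most tissues, make less certain counts. Copies elsewhere share 53.9% of the 50-base stretches of *Pgk1* and 36.2% of those of *Pgam1*. *Pgk1* had a log2 fold change of -0.45 ± 0.30 (SE, limma adjusted p = 0.646). *Pgam1* was at 189.6, 204, 248, 429 and 625 in WT and at 188, 129, 177, 37.2 and 292 in the KO-labelled libraries. *Mgp*-KO 4 was the lowest of the 10 and *Mgp*-KO 5 lay among the WT values, and the limma adjusted p was 0.464. In replicates 1 to 3 alone the log2 fold change of *Pgam1* was -0.39, and in replicates 4 and 5 alone it was -2.29. Over the 36 genes, 12 share more than 5% of such stretches with another gene, *Pkm* (25.8%) and *Pdhb* (10.9%) among them, and 17 share none. *Pkm*, the pyruvate kinase of tissues other than liver and blood, had a log2 fold change of -0.62 ± 0.29 (SE, limma adjusted p = 0.499).

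*Ldha* encodes the lactate dehydrogenase subunit that favours lactate. *Ldha*, at GRCm38 chr7:46841475-46855627 on the plus strand, was at 8647, 9052, 12717, 15003 and 16202 in WT and at 6045, 3909.7, 5619, 8019 and 7685 in the KO-labelled libraries. The groups did not overlap, and in either group replicates 4 and 5 lay above replicates 1 to 3. Means were 12324 ± 3413 and 6256 ± 1666 (SD, n = 5 each). *Ldha* had a log2 fold change of -0.98 ± 0.27 (SE, limma adjusted p = 0.200, and 0.0195 with the term for the sets), with -0.97 in replicates 1 to 3 alone and -0.99 in replicates 4 and 5 alone. *Ldhb*, the subunit that favours pyruvate, had a log2 fold change of -0.40 ± 0.33 (SE, limma adjusted p = 0.728), with -0.05 within replicates 1 to 3. The value 2103 in *Mgp*-KO 4 was the lowest of *Ldhb*, and the other 4 KO-labelled libraries lay between 6755 and 7593, inside the WT range.

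The 36 genes hold 4 components of the pyruvate dehydrogenase complex. All 4 had a log2 fold change below 0, and 3 of them, *Pdhb*, *Dlat* and *Pdhx*, did not overlap between the groups. Groups that do not overlap were found lower in the KO-labelled libraries in 6 of the 36 genes, beside 2.11% of all genes, and higher in 0, beside 1.39%. The other 3 were *Eno1*, *Ldha* and *Pck1*. Because the 4 subunits belong to the same complex, the stretches upstream of their transcription starts are printed here, so that the letters they share and do not share can be seen. Each is the 250 bases upstream of the start in RefSeq (GRCm38.p6), read 5′ to 3′ on the strand of the gene, all on the minus strand of the genome. *Pdha1* is at chrX:160138431-160138680, *Pdhb* at chr14:8172993-8173242, *Dlat* at chr9:50659781-50660030 and *Pdhx* at chr2:103073514-103073763. Capitals mark any of 3 motifs on either strand. The first is the core shared by hypoxia response and E-box elements (ACGTG, which reads CACGT on the other strand), the second is the GC box (GGGCGG or CCGCCC) and the third is the CCAAT box, which reads ATTGG on the other strand.
Pdha1: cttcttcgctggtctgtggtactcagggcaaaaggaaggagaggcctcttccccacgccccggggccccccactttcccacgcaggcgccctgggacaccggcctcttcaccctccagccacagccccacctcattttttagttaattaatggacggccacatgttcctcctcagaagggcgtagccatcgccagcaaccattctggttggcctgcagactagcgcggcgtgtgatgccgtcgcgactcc
Pdhb: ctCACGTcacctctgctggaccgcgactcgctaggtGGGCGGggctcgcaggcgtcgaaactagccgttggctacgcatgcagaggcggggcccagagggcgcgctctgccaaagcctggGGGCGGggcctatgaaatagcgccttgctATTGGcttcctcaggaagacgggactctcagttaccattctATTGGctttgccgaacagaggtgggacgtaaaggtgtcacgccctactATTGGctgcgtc
Dlat: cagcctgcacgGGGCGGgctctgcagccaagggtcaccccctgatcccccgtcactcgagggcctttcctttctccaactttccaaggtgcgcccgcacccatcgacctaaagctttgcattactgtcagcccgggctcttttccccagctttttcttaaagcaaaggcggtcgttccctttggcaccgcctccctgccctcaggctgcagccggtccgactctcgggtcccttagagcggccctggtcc
Pdhx: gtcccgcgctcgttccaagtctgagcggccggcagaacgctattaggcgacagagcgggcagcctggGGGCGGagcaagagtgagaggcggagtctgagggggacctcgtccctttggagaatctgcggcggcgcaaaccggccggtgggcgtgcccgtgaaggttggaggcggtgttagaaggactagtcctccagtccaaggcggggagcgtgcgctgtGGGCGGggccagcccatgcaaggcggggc
*Pdhb* held 1 ACGTG, 2 GGGCGG and 3 CCAAT, *Dlat* held 1 GGGCGG, *Pdhx* held 2 GGGCGG and *Pdha1* held none of these letters. Their GC content was 61.6% in *Pdha1*, 61.6% in *Pdhb*, 62.8% in *Dlat* and 68.4% in *Pdhx*. Among the 34 of 36 genes with such a sequence, ACGTG occurred in 12 (35.3%), GGGCGG in 21 (61.8%) and CCAAT in 15 (44.1%). Over all 32817 promoters of the same length the shares were 16.6%, 32.7% and 33.8%. These are all distinct promoters, not 1 per gene, and were matched neither for GC content nor for expression. The RefSeq start used for each of the 34 genes was the nearest to that of a GENCODE transcript. It lay 17941 bases away in *Hk1*, 6262 in *Eno1* and 2272 in *Tpi1*. A match is a run of letters and was not tested for binding.

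*Pdhb* encodes the beta subunit of the decarboxylase (E1) of the complex, at GRCm38 chr14:8165996-8173025. It was at 6813, 8182, 10939, 8846 and 14601 in WT and at 4038, 3506, 3719, 2796 and 5307 in the KO-labelled libraries. The lowest WT library lay above the highest KO-labelled library, and the gap was wider within each set. Means were 9876 ± 3032 and 3873 ± 922 (SD, n = 5 each). The adjusted p of *Pdhb* was 0.0575 in limma, 0.0162 with the term for the sets, 0.0225 within replicates 1 to 3 and 7.12e-05 in DESeq2. Within replicates 1 to 3 the log2 fold change was -1.18 and within replicates 4 and 5 it was -1.56. The call in limma over all libraries turned on *Mgp*-KO 4, without which the log2 fold change was -1.22 and the adjusted p 0.0491.

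*Dlat*, the acetyl transferase (E2), was at 9159.5, 10225, 11695, 10288 and 16707 in WT and at 7861, 6287, 7142, 5972 and 8384 in the KO-labelled libraries. The groups did not overlap, and WT 5 was the highest library. *Dlat* had a log2 fold change of -0.68 ± 0.21 (SE), with an adjusted p of 0.260 in limma, 0.0844 with the term for the sets and 0.0405 in DESeq2. *Pdhx*, which holds the dehydrogenase (E3) in the complex, was at 1768, 2046, 2546, 2147 and 3165 in WT and at 1695, 1487, 1681, 903 and 1693 in the KO-labelled libraries. Its groups came close to touching at WT 1 and *Mgp*-KO 1. The log2 fold change was -0.65 ± 0.23 (SE, limma adjusted p = 0.327). *Dld*, the dehydrogenase (E3) itself, which is not among the 36, had a log2 fold change of -0.61 ± 0.30 (SE, limma adjusted p = 0.513), and its groups overlapped.

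*Pdha1*, the alpha subunit of E1, which carries the sites that the kinases phosphorylate, was at 23935, 27241, 29918, 21083 and 39966 in WT and at 24021, 22095, 21051, 7361 and 17845 in the KO-labelled libraries. WT 1 and 4 lay among the values of *Mgp*-KO 1 to 3. On the log2 scale the difference was -0.70 ± 0.34 (SE, limma adjusted p = 0.515), with -0.27 in replicates 1 to 3 alone and -1.34 in replicates 4 and 5 alone. Beside these subunits, the summed brown adipocyte markers were lower in the KO-labelled libraries in 7 of 8 genes, with 0 of 8 past the limma threshold and 4 at an unadjusted p of 0.05, and their part in the result was not tested. The erythroid markers summed to 101497 in *Mgp*-KO 4, against 3009 to 26407 in the other 9 libraries, and *Mgp*-KO 4 was also the library with the highest share of mitochondrial ribosomal RNA. The endothelial markers summed to 43088 in *Mgp*-KO 4, against 15067 to 24180 in the other 9 libraries, and all 7 had a log2 fold change above 0 in the KO-labelled group, with 0 past the limma threshold and 1 at an unadjusted p of 0.05. The part of these in the low values of *Mgp*-KO 4 was not tested.

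None of the 4 kinases that switch the complex off passed a limma test of genotype, nor the limma interaction test of whether the genotype difference was unlike in the sets. *Pdk4*, the kinase induced by fasting, was at 31439.5, 30929, 35420.0, 20743 and 22645 in WT and at 28184, 33614, 32626, 7552 and 11067 in the KO-labelled libraries. *Pdk2*, the most widely expressed of them, was at 7341, 7273, 8942, 3858 and 4274 in WT and at 11751, 13775, 10032, 1525 and 4059 in the KO-labelled libraries. In replicates 1 to 3 each *Pdk2* value in the KO-labelled group lay above each WT value, and in replicates 4 and 5 *Mgp*-KO 4 lay below both WT libraries. The log2 fold change of *Pdk2* was 0.59 in replicates 1 to 3 alone (limma adjusted p = 0.0926) and -0.71 in replicates 4 and 5 alone, that of *Pdk4* was -0.05 and -1.25, and that of *Pdk1* was -0.15 and -1.35. The interaction of genotype and set had unadjusted p of 0.0261, 0.00730 and 0.0164 and adjusted p of 0.466, 0.455 and 0.455 in limma. Over all 36 genes 0 passed this interaction test, and 0.00729% of all genes passed it. At an unadjusted p of 0.05 there were 5 (*Hk1*, *Pfkfb3*, *Pdk1*, *Pdk2* and *Pdk4*), beside 10.3% of all genes. *Pdk3* was scarce, at 10.4 to 29.1 in every library, and *Pdp1*, the phosphatase that switches the complex on, had a log2 fold change of 0.28 ± 0.23 (SE, limma adjusted p = 0.723).

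*Mpc1* and *Mpc2* form the carrier that brings pyruvate into the mitochondrion. *Mpc2* was at 3995, 4644, 5308, 9074 and 11975 in WT and at 3569, 2453, 3094, 3372 and 5517 in the KO-labelled libraries. Within each set every WT value lay above every KO-labelled value, and the overlap over all libraries came from *Mgp*-KO 5. For *Mpc2* the log2 fold change was -0.88 ± 0.33 (SE), with an adjusted p of 0.353 in limma and of 0.0506 with the term for the sets, while DESeq2 with that term called it lower. *Mpc1* had a log2 fold change of -0.65 ± 0.50 (SE, limma adjusted p = 0.697). The processed copy *Mpc1-ps* shares 11.0% of the 50-base stretches of *Mpc1* and was itself read, at 1.62 to 499 normalized counts. Exons on the opposite strand overlap 23.1% of the exon length of *Mpc1* and 16.1% of that of *Pdha1*, and as the strand setting of the counting is not given in the sources used here, reads of either strand cannot be told apart.

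*Pck1*, phosphoenolpyruvate carboxykinase, leads carbon from the citric acid cycle back towards glucose and, in fat, to the glycerol of triglycerides. *Pck1*, at GRCm38 chr2:173153048-173159273 on the plus strand, was at 47386, 52044, 54039, 41018 and 49361 in WT and at 35304, 23771, 35232, 13781 and 30393 in the KO-labelled libraries. The groups did not overlap, and the WT libraries were close together. The log2 fold change was -0.89 ± 0.29 (SE), with an adjusted p of 0.290 in limma and of 0.0968 with the term for the sets, while DESeq2 with that term called it lower.

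The genes spanned a wide range of levels. Per kilobase of exon the highest means in WT were those of *Pck1* at 14223, *Aldoa* at 9471, *Pdk4* at 8042 and *Pdha1* at 7613 normalized counts, and the lowest were those of *Slc16a3* at 1.90 and *Pdk3* at 8.71. Among isoforms, *Slc2a4* at 1686 stood above *Slc2a1* at 32.5 per kilobase, and *Hk2* at 1485 above *Hk1* at 60.9, in every WT library. *Pdhb* at 2558 and *Dlat* at 2377 per kilobase did not differ beyond their spread in WT, with SD of 785 and 611.

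**Figure D3:**
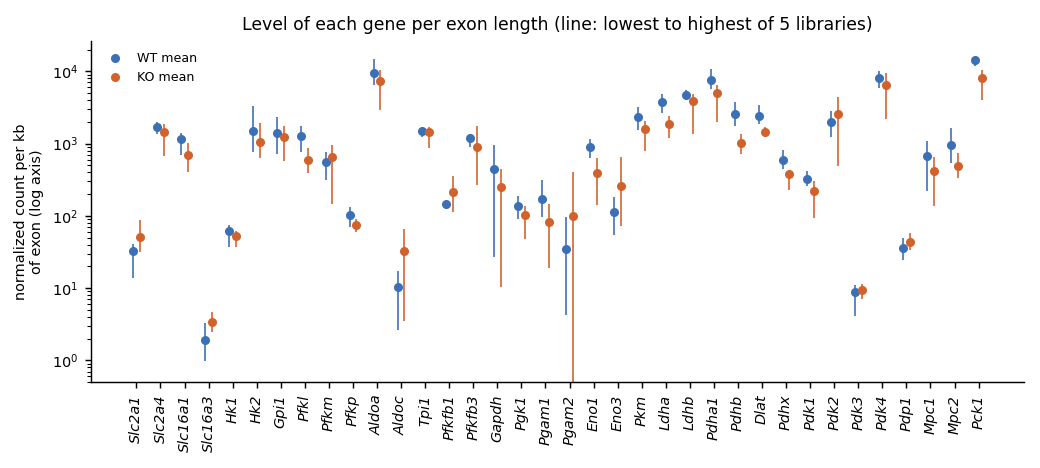
Mean normalized count per kilobase of exon (log axis) of each of the 36 genes in WT (blue) and in KO-labelled libraries (orange), with lines from the lowest to the highest of 5 libraries; the KO-labelled line of *Pgam2* runs to 0, off the axis. *Pck1* is the highest and *Slc16a3* the lowest in either group.

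The sets differed in about the same share of the 36 genes as of all genes. With genotype and set in the limma fit, 14 of the 36 differed between replicates 1 to 3 and replicates 4 and 5, with 10 lower and 4 higher in the latter, beside 38.2% of all genes (19.9% lower and 18.3% higher). The genes higher in replicates 4 and 5 were *Hk2*, *Ldha*, *Pdp1* and *Mpc2*, and those lower were *Gpi1*, *Pfkm*, *Pfkfb3*, *Aldoa*, *Aldoc*, *Gapdh*, *Eno1*, *Pdk2*, *Pdk4* and *Mpc1*. Depth, the share of mitochondrial ribosomal RNA and the summed brown adipocyte markers moved with the sets, and their part in these differences was not tested. The brown adipocyte sum was 200327 to 213384 in WT 1 to 3 against 384053 and 394843 in WT 4 and 5, and 138879 to 168338 in *Mgp*-KO 1 to 3 against 193558 and 280983 in *Mgp*-KO 4 and 5. Its markers did not all move alike. In WT, *Fabp4* (87326 to 101057 against 242211 and 201347), *Ucp1* and *Dio2* were higher in replicates 4 and 5. *Plin1* (17011 to 20627 against 9009 and 12881), *Pparg* and *Prdm16* were lower there.

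*Gapdh*, glyceraldehyde phosphate dehydrogenase and the reference gene of the study's qPCR, moved most with the sets. *Gapdh*, at GRCm38 chr6:125161715-125166467 on the minus strand, was at 2287, 2716, 3956, 109.9 and 201 in WT and at 1864, 1727, 1536, 42.1 and 63.3 in the KO-labelled libraries. These rest on 1871 to 5381 reads in replicates 1 to 3 and on 26 to 116 reads in replicates 4 and 5. Replicates 4 and 5 lay far below the others in both groups, and the log2 difference between the sets was -4.65 ± 0.24 (SE, limma adjusted p = 6.76e-07). Within each set every WT value lay above every KO-labelled value. The genotype log2 fold change of *Gapdh* was -1.07 ± 1.35 (SE, limma adjusted p = 0.834) without the term for the sets and -1.07 ± 0.23 (SE, limma adjusted p = 0.0405) with it. Without the term it ran from -1.82 to -0.24 with each library left out in turn. It was 0.94 without *Mgp*-KO 4 and 5, which leaves replicates 4 and 5 to WT alone. Copies share 24.7% of the 50-base stretches of *Gapdh*, mainly *Gm7336*, and whether reads were lost to copies was not tested.

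**Figure D4:**
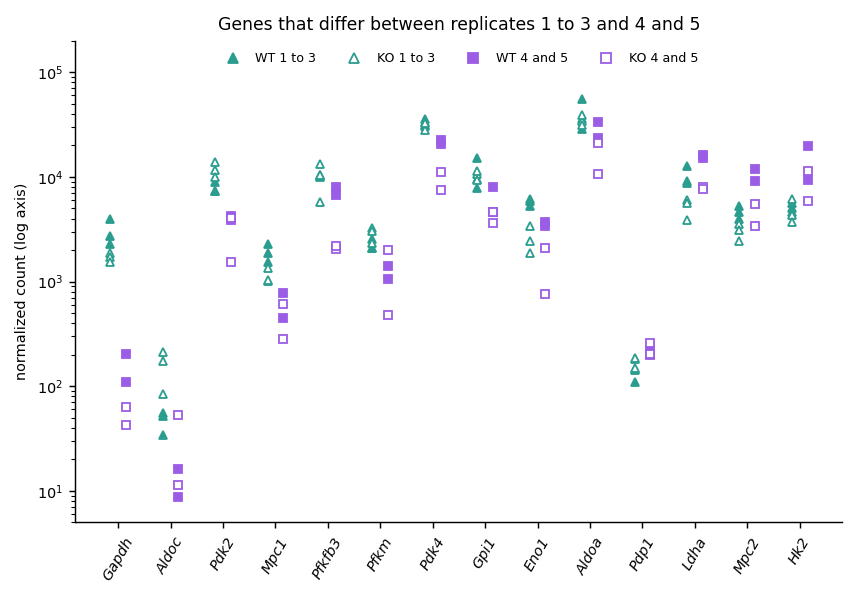
Normalized counts (log axis) in each library of the 14 genes that differed between replicates 1 to 3 (triangles) and replicates 4 and 5 (squares), filled for WT and open for KO-labelled libraries. *Gapdh*, at the left, shows the widest gap, from 1536 to 3956 down to 42.1 to 201.

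*Pgam2*, *Eno3* and *Pfkm* are the isoforms of phosphoglycerate mutase, enolase and phosphofructokinase best known from skeletal muscle, which lies beside this fat depot. The 14 muscle markers summed to 583 to 8398 in WT and 381 to 46053 in the KO-labelled libraries, with the highest sums in *Mgp*-KO 2 and 5. Of the 14, 3 (*Tnni2*, *Tnnc2* and *Actn3*) had 0 reads in some library, and in the limma test of genotype 0 of 14 passed, adjusted or unadjusted. *Pgam2* was at 3.58, 4.49, 80.1, 26.4 and 32.9 in WT and at 2.26, 57.4, 0, 9.71 and 342 in the KO-labelled libraries. *Eno3* was at 115, 92.8, 254, 211 and 317 in WT and at 126, 546, 145, 269 and 1142 in the KO-labelled libraries. *Mgp*-KO 5 was the highest library for both genes, and the groups overlapped. *Pfkm* was at 2084, 2094, 2571, 1048 and 1398 in WT and at 3214, 2309, 3023, 482 and 2001 in the KO-labelled libraries. In *Pfkm* the highest libraries, *Mgp*-KO 1 and 3, were those with the lowest muscle sums. Most of these sums was *Myl1*, with 309 of 381 in *Mgp*-KO 1 and 394 of 474 in *Mgp*-KO 3. The same held in WT 1 and 2, with 552 of 617 and 520 of 583. The order of the lowest sums therefore rests mainly on this marker.

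On the log2 scale *Pgam2* followed the muscle sum over the 10 libraries, with Pearson r = 0.92 (permutation p = 0.00018, adjusted over 3 relations 0.00054) and Spearman rho = 0.94 (permutation p = 0.00028, adjusted 0.00084). *Eno3* did so with r = 0.92 (permutation p = 0.00046, adjusted 0.00069) and rho = 0.83 (permutation p = 0.00484, adjusted 0.00726). *Pfkm* did not, with r = -0.03 (permutation p = 0.871, adjusted 0.871) and rho = -0.35 (permutation p = 0.335, adjusted 0.335). Without *Mgp*-KO 2 and 5, the libraries farthest from the median muscle sum, r was 0.94 for *Pgam2*, 0.83 for *Eno3* and -0.29 for *Pfkm*. Within replicates 1 to 3 (n = 6) r was 0.89 for *Pgam2* (exact permutation p = 0.0833, adjusted 0.125), 0.95 for *Eno3* (exact permutation p = 0.0528, adjusted 0.125) and -0.25 for *Pfkm* (exact permutation p = 0.572, adjusted 0.572). No correlation was taken over replicates 4 and 5, which hold 4 libraries. In limma the genotype log2 fold change was -0.29 ± 1.42 for *Pgam2* and 0.81 ± 0.58 for *Eno3* (SE). That of *Pgam2* had the opposite direction in DESeq2 (1.48) and edgeR (1.47). With each library left out in turn, that of *Eno3* in limma ran from 0.35 to 1.14. With the muscle level as a term it was -0.67 for *Pgam2*, 0.66 for *Eno3* and 0.09 for *Pfkm*.

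**Figure D5:**
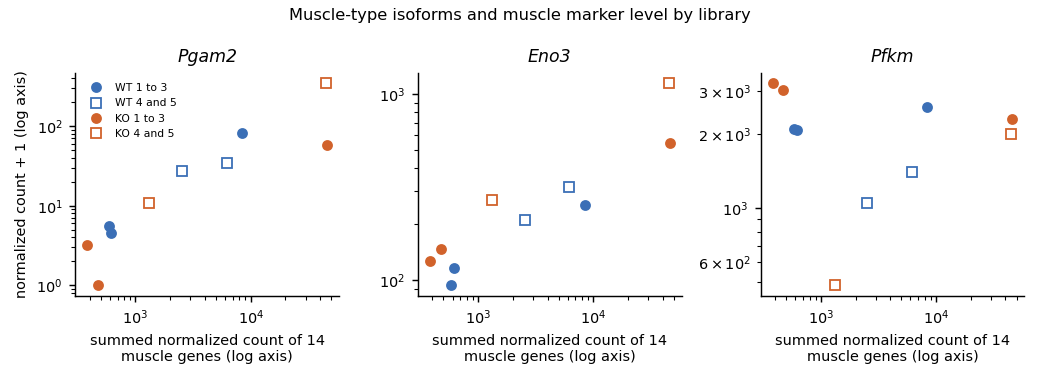
Normalized count + 1 (log axis) of *Pgam2*, *Eno3* and *Pfkm* against the summed normalized count of 14 muscle genes (log axis) in the 10 libraries, blue for WT and orange for KO-labelled libraries, open for replicates 4 and 5. *Pgam2* and *Eno3* climb with the muscle sum (r = 0.92 for each), and *Pfkm* does not (r = -0.03).

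Ratios of 2 isoforms within a library were taken on log2 normalized counts with 1 added, so those of scarce genes depend on the scaling and on the count added, and 8 such ratios were compared by exact permutation tests (2-sided, 5 against 5, adjusted over the 8). None passed an adjusted p of 0.05, and in all 8 the groups overlapped. The log2 ratio of *Pfkm* to *Pfkl* was -2.24 ± 0.31 in WT and -1.03 ± 0.81 in the KO-labelled libraries (SD, n = 5 each), a difference of 1.20 (exact p = 0.0397, adjusted 0.106). That of *Slc16a1* to *Slc16a3* differed by -1.68 (exact p = 0.0397, adjusted 0.106) and that of *Pdk4* to *Pdk2* by -0.60 (exact p = 0.0317, adjusted 0.106). The ratio of *Slc2a4* to *Slc2a1* was 5.75 ± 0.78 in WT and 4.78 ± 0.71 in the KO-labelled libraries (SD, n = 5 each), a difference of -0.97 (exact p = 0.0556, adjusted 0.111). The ratios of *Eno3* to *Eno1*, *Ldhb* to *Ldha*, *Pgam2* to *Pgam1* and *Hk2* to *Hk1* differed by 2.14, 0.58, 0.86 and -0.20, with adjusted p of 0.114, 0.370, 0.671 and 0.714 in the same exact tests. The difference in the ratio of *Pgam2* to *Pgam1* was 0.0020 without *Mgp*-KO 5 and 1.93 without *Mgp*-KO 3. Without *Mgp*-KO 4, 3 of the 8 passed, those of *Pfkm* to *Pfkl* (1.55), *Ldhb* to *Ldha* (1.03) and *Pdk4* to *Pdk2* (-0.78), each at an adjusted p of 0.0423 in the exact test.

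Of 42 further genes of sugar, glycogen and glycerol phosphate metabolism, 37 were tested and 0 passed in limma over all libraries, with 10 at an unadjusted p of 0.05, beside 10.4% of all genes, and edgeR called 0 as well, beside 0.0219%. Of the 37, 25 had a log2 fold change below 0, and their median was -0.22. With the term for the sets, which called 1.54% of all genes lower and 0.824% higher, *Gpd2*, the mitochondrial glycerol phosphate dehydrogenase, *Pygl*, the liver-type glycogen phosphorylase, and *Ppp1r3c*, which targets a phosphatase to glycogen, were lower, and *Slc2a3*, the high-affinity glucose transporter GLUT3, and *Pck2*, the mitochondrial counterpart of *Pck1*, were higher. DESeq2, which called 1.26% lower and 0.997% higher, called *Gpd2*, *Pygl*, *Slc2a3* and *Pck2* as well, and also *Gpd1*, the cytosolic glycerol phosphate dehydrogenase, lower. *Gpd2* was at 13559.7 to 18337 in WT and at 6245 to 9659 in the KO-labelled libraries. Its log2 fold change was -0.96 ± 0.19 (SE), with an adjusted p of 0.0741 in limma and of 0.0160 with the term for the sets. *Slc2a3* was at 27.0 to 52.8 in WT and at 59.1 to 215 in the KO-labelled libraries, with a log2 fold change of 1.55 ± 0.34 (SE, limma adjusted p = 0.0968, and 0.0349 with the term for the sets). With a term for the replicate number instead, neither *Slc2a3* (limma adjusted p = 0.0501) nor *Pck2* (0.0627) passed. The groups did not overlap in 6 of the 37, lower in *Gpd2*, *Pygl*, *Gpd1* and *Pgm2* and higher in *Slc2a3* and *Pgm1*, beside 2.11% and 1.39% of all genes. DESeq2 with the term for the sets called 7 lower and 2 higher, beside 3.91% and 3.5% of all genes. These were *Gbe1*, *Gpd1*, *Gpd2*, *Pcx*, *Pgm2*, *Ppp1r3c* and *Pygl* lower and *Pck2* and *Slc2a3* higher. Without *Mgp*-KO 4 and 5 limma called *Gpd2* lower and *Pck2* and *Txnip*, a thioredoxin-binding protein that limits glucose uptake, higher, beside 0.955% and 0.992% of all genes. Without WT 2 as well it called *Gpd2* lower and *Pck2* higher, beside 0.306% and 0.401%. In replicates 1 to 3 alone it called *Gpd1*, *Gpd2*, *Ppp1r3c* and *Pygl* lower and *Pck2* and *Txnip* higher, beside 1.65% and 1.9%. *Txnip* had a log2 fold change of 1.28 there (limma adjusted p = 0.0378) and of -0.04 in replicates 4 and 5 alone.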

How the data were processed

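RNA of interscapular BAT, read as single-end reads of 50 bases, was aligned by the authors with STAR to mm10, and reads that map to only 1 place were counted per gene. The deposited values are normalized counts, a signal per gene that the authors made by dividing the counts by DESeq2 size factors. The annotation release and the strand setting are not given in the sources used here. Groups and replicate numbers came from the labels, and each library was taken as 1 mouse, as the study's methods have it.

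The 36 members, the pathway list and the muscle, brown adipocyte, endothelial and erythroid marker lists were chosen with earlier results of these data known. The main test was limma 3.58.1 (R 4.3.3) on log2(normalized count + 1), over genes with a mean of at least 10, its variance prior following the mean level. Benjamini-Hochberg adjustment was over the 13714 genes tested, with a threshold of 0.05. Because of the count of 1 that was added, a fold change understates that of low genes. All 36 members were named, in full where they passed a fit, did not overlap, or were muscle isoforms, glucose transporters, hexokinases or *Gapdh*. Values were whole multiples of 1 read in 100% of cases (within 0.01 reads), and the recovered reads went to edgeR 4.0.16 and DESeq2 1.42.0. Other fits added a term for the sets, the replicate number or the muscle level, or left libraries out. Ratios and correlations used exact or permutation tests in scipy 1.17.1. Locations and exon lengths came from GENCODE (GRCm38) by symbol, and promoters from RefSeq (GRCm38.p6). The scripts were tested on simulated data. Depth limits the scarce genes most, *Slc16a3*, *Pgam2* and *Pdk3* among them.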

Additional observations from a re-analysis of the deposited data

Results flagged for a closer look

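On the log2 scale, 1 library stood far from the other 4 of its group in 8 of 72 tests (each gene in each group), where chance gives about 1 in 20. In 5 of the 8 the library was *Mgp*-KO 4, with the lowest value of its group for *Slc2a4* (2302, the next being 5195), *Pfkm* (482, the next 2001), *Ldhb* (2103, the next 6755), *Pdha1* (7361, the next 17845) and *Pdhx* (903, the next 1487) in normalized counts. *Hk1* was lowest in *Mgp*-KO 2 at 317, with the next at 457. WT 5 was lowest in its group for *Slc2a1*, at 48.5 with the next at 111, and for *Pdk3*, at 10.4 with the next at 24.0.

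For *Mgp* itself the log2 genotype difference was 7.16 higher in replicates 4 and 5 than in replicates 1 to 3 (limma interaction, adjusted p = 0.000251). This was the single gene of the 13714 whose genotype difference passed that test.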

How the results depend on the processing

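Over all libraries limma put 0 of the 36 genes past the threshold, and this count was the most dependent on the fit: it was 5 with a term for the sets, 5 in DESeq2, 9 in DESeq2 with that term, 2 within replicates 1 to 3, 2 without *Mgp*-KO 4 and 5, and 0 to 1 with each library left out in turn (1 without *Mgp*-KO 4, where 0.678% of all genes passed). With the replicate number as a block it was 5 in limma (*Pfkl*, *Gapdh*, *Eno1*, *Ldha* and *Pdhb*) and 4 in edgeR, all lower, beside 1.3% and 1.09% of all genes called lower. Of the 5 further pathway genes called with the set term, the block in limma kept *Gpd2*, *Pygl* and *Ppp1r3c* but not *Slc2a3* (adjusted p = 0.0501) or *Pck2* (0.0627). Same-numbered libraries deviated together with correlations of 0.53, 0.06, 0.33, 0.52 and 0.51, 4 of them over 0.1 and that of replicate 2 under it. Only the group mean was taken off before, so the difference between the sets is still in these deviations. Libraries of the same set share it, and the correlations cannot tell a pair from a set. The study's methods speak of 5 pairs of mice but no source used here ties the pairs to the numbers, so the block stands as an alternative. Only replicates 4 and 5 correlated best with their own number in both groups. The ratios past the threshold went from 0 to 3 with each library left out.

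Some directions turned, that of *Gapdh*, at -1.07 over all libraries, among them. Without *Mgp*-KO 4 and 5, which leaves replicates 4 and 5 to WT alone, and then without WT 2 too, the log2 fold changes were 0.31 and 0.36 for *Gpi1*, 0.051 and 0.10 for *Pfkfb3*, 0.045 and 0.064 for *Aldoa*, 0.071 and 0.0078 for *Tpi1*, 0.94 and 1.35 for *Gapdh*, and 0.18 and 0.22 for *Pdk4*; without all 3, *Mpc1* was at 0.087. In replicates 1 to 3 they were 0.20 for *Tpi1* and -0.034 for *Pdk3*, and the ratios of *Hk2* to *Hk1* and *Pgam2* to *Pgam1* were 0.41 and -0.75. In replicates 4 and 5 they were 0.39 for *Hk1*, -0.30 for *Pfkm*, -0.71 for *Pdk2* and 0.99 for *Pgam2*. *Pgam2* also turned with a pseudocount of 10 (0.21), in edgeR (1.47), in edgeR with the block (0.40), in DESeq2 (1.48) and in DESeq2 with the set term (0.63). With each library left out in turn, *Gpi1* ran from -0.44 to 0.013, *Pfkm* from -0.12 to 0.56, *Tpi1* from -0.15 to 0.10, *Pgam2* from -1.42 to 0.68, *Pdk2* from -0.21 to 0.58, *Pdk3* from -0.089 to 0.25 and the ratio of *Hk2* to *Hk1* from -0.46 to 0.16. Other values moved by over 1.5 times without turning, such as *Aldoa* (-0.60 to -0.13), *Mpc1* (-0.998 to -0.297), *Pgk1* (-0.57 to -0.20) and *Pdha1* (-0.82 to -0.39), their values nearest 0 being those without *Mgp*-KO 5 for *Mpc1* and without *Mgp*-KO 4 for the other 3. The cause of these changes was not tested. Of 647 values per gene and setting, single libraries left out aside, 591 kept direction and side of the threshold and 32, in 9 genes, passed it.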
